A study of Mus musculus with 12 samples.

Results

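The genes described here encode parts of the cytosolic translation machinery, chosen by name as the rows of the count table whose Entrez Gene ID maps to Rpl7, Rpl31, Rpl37a, Rps12, Rps15, Eef1b2, Eef2, Eif5b, Eif4e2 or Eif4ebp2. All 10 were found among the 2398 genes of the table, and all 10 passed the filter on low counts. In mm10, the genes on chromosome 1 are Rpl7 (16101295 to 16104433), Eif5b (37998010 to 38055579), Rpl31 (39367851 to 39371911), Eef1b2 (63176831 to 63180486), Rpl37a (72711260 to 72713813) and Eif4e2 (87213911 to 87240488). Those on chromosome 10 are Rps12 (23785183 to 23787383), Eif4ebp2 (61428491 to 61452790), Rps15 (80292431 to 80294114) and Eef2 (81176631 to 81182509). RNA was sequenced from oligodendrocytes of C57BL/6 mice, 60 postnatal days old in one label and 8 weeks in another, sorted from brain as GFP-positive cells that excluded the dead-cell dye propidium iodide. Every animal carried the Ndrg1-EGFP reporter and floxed Lmna alleles, Lmna being the gene of lamins A and C. The group called WT here was Cnp+/+;Lmnafl/fl, and the group called KO was CnpCre/+;Lmnafl/fl, in which Cre is made from 1 Cnp allele. Cnp is an oligodendrocyte gene, so KO differed from WT in Cre and in intact Cnp copies as well as in Lmna itself. There were 3 biological replicates of each genotype, and the 2 libraries made of each were summed, and the labels do not say whether animals were pooled.

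A ribosome joins a small subunit, whose proteins are named Rps, and a large subunit, whose proteins are named Rpl. Initiation factors bring the ribosome, the capped mRNA and the first tRNA together, and elongation factors then deliver each amino acid and move the ribosome along. Many mRNAs of this machinery begin with a C followed by a run of pyrimidines, the terminal oligopyrimidine tract, through which the mTOR pathway controls their translation. Oligodendrocytes make large amounts of myelin protein and lipid, and part of that protein is translated locally in their processes.

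The table analysed here covers chromosome 1 and chromosome 10 up to 111.3 Mb, so Lmna and Cnp are not analysed here and the recombination was not checked. Counts in these genes came to between 3694551 and 6093336 per replicate, which is not the depth of the libraries. CPM below, the usual depth-scaled count, is relative to the TMM-scaled total of these genes. Of 20 genes fixed as markers of mature oligodendrocytes, Adamts4 and Nfasc were in the table. Together they summed to 10317 to 11898 CPM in WT against 14778 to 17091 CPM in KO. Neither passed the edgeR test described below (adjusted p = 0.504 for Adamts4 and 0.927 for Nfasc). The other genes of that list are not analysed here. Genes listed as markers of other cells were also read. The 4 of 11 astrocyte genes in the table summed to 12816 to 20765 CPM in WT and to 15243 to 22837 CPM in KO, most of it Glul, which oligodendrocytes also express, with Gja1 at 92.7 to 736 CPM over the 6 replicates. Ptprc and Fcer1g, 2 of 15 microglial genes, summed to 41.5 to 85.5 CPM in WT and to 47.0 to 242 CPM in KO. Vascular and fibroblast genes (5 of 16) summed to 83.5 to 639 CPM over the replicates, neuronal genes (3 of 13) to 79.8 to 366 CPM, precursor genes (2 of 12) to 0.497 to 95.6 CPM, and immediate early genes, which dissociation can induce (4 of 21), to 285 to 3563 CPM. In sorted bulk RNA, fewer cells of a type and less RNA per cell cannot be told apart.

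The 5 ribosomal protein genes were read in every replicate, and the WT and KO values of each overlapped. Rpl7, a protein of the large subunit, was read at 1565, 1467 and 1243 CPM in WT replicates 1, 2 and 3 and at 1527, 1302 and 1380.3 CPM in the KO replicates. Rpl31, also of the large subunit near the exit of the nascent chain, was read at 612, 504 and 577 CPM in WT and at 563, 508 and 519 CPM in KO. Rpl37a, a small zinc-binding protein of the large subunit, was read at 1172, 978 and 1096 CPM in WT and at 1196, 1115 and 847 CPM in KO. For each of these genes the genotypes overlapped, and the lowest replicate was WT replicate 3 for Rpl7, WT replicate 2 for Rpl31 and KO replicate 3 for Rpl37a. Rps12, of the head of the small subunit, was read at 149.7, 114 and 141 CPM in WT and at 139, 128 and 109 CPM in KO. Rps15, a small-subunit protein close to the decoding site, was read at 1006, 797 and 918 CPM in WT and at 969, 877 and 803 CPM in KO. WT replicate 1 was the highest of the 6 for Rpl7, Rpl31, Rps12 and Rps15, and KO replicate 1 for Rpl37a.

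**Figure D1:**
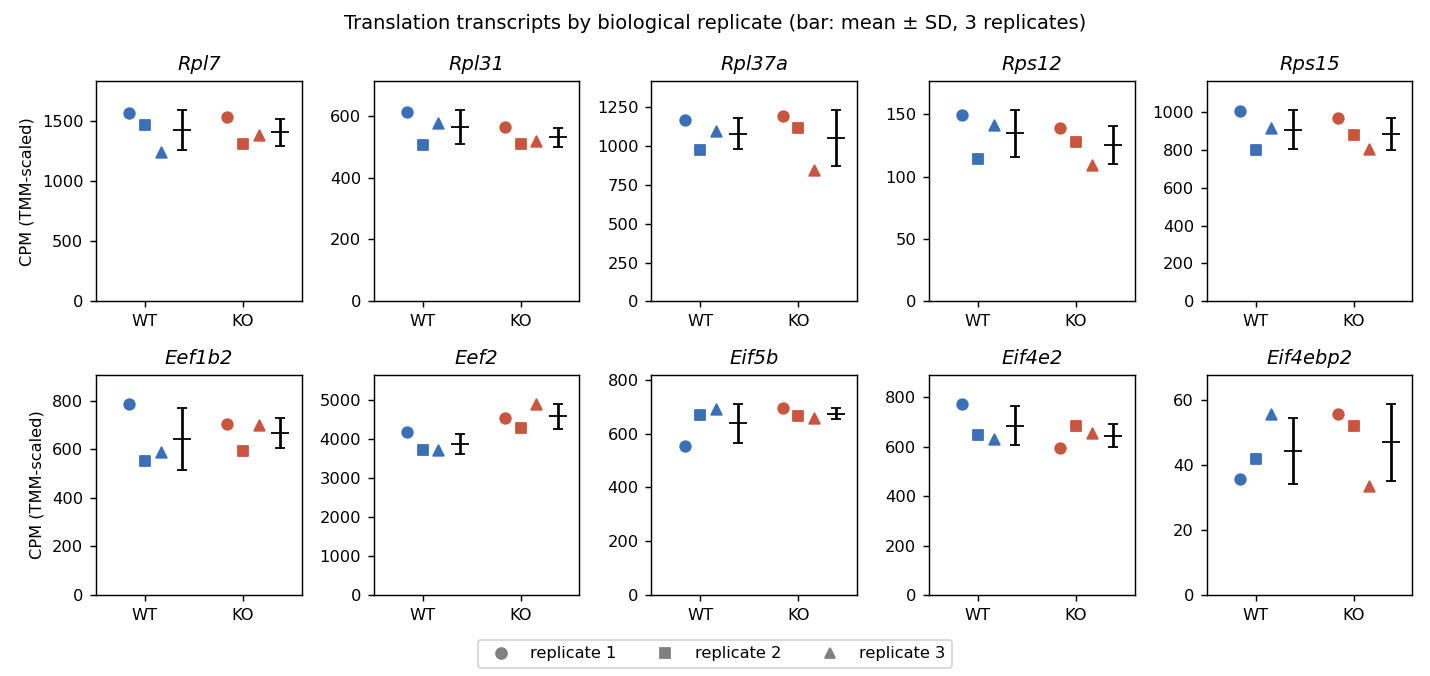
TMM-scaled CPM of the 10 genes (vertical axes, each from 0) in the WT (blue) and KO (red) replicates, with the mean and SD of 3 replicates as black bars. The genotypes overlap in every panel but that of Eef2, where the lowest KO replicate (4281 CPM) lies above the highest WT replicate (4164 CPM).

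Set against WT, the ribosomal protein genes had log2 fold changes in KO of -0.023 ± 0.12 (SE) for Rpl7, -0.091 ± 0.12 for Rpl31, -0.040 ± 0.15 for Rpl37a, -0.11 ± 0.18 for Rps12 and -0.040 ± 0.13 for Rps15. None passed the quasi-likelihood test of edgeR, whose Benjamini-Hochberg adjusted p was 0.994 for all 5. That test called 0 of the 1484 genes tested (0%) at an adjusted p under 0.05, and 59 (3.98%) were under 0.05 before adjustment, none of them a ribosomal protein gene. DESeq2 on the same replicates called 7 of 1481 genes (0.473%), again none of these. The 95% intervals of the KO to WT ratio ran from 0.81 to 1.19 for Rpl7 and 0.78 to 1.13 for Rpl31. They ran from 0.77 to 1.22 for Rpl37a, 0.70 to 1.23 for Rps12 and 0.80 to 1.19 for Rps15. Changes within those limits are not excluded by these replicates. All 5 estimates were below 0, with a median of -0.040 where all genes tested had a median of -0.0064, but for Rpl7, Rpl37a and Rps15 the sign rested on single replicates. Without WT replicate 1 the log2 fold change was 0.049 for Rpl7, 0.019 for Rpl37a and 0.039 for Rps15, and without KO replicate 3 it was 0.093 for Rpl37a and 0.023 for Rps15. For Rpl7 it was also above 0 without WT replicate 2 (0.0091) and without KO replicate 2 (0.033). The share of a replicate's counts that fell in the 5 genes ranged from 0.361% to 0.457%.

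The sequences near the annotated starts of these genes are shown because pyrimidine runs were not used to choose the genes. RefSeq on GRCm38 (mm10) gave a start for 9 of the 10 genes, with no entry for Rpl7. Each line is 30 bases on the coding strand, 5′ to 3′, that hold the longest run of C and T that opens with C within the first 50 bases after the annotated start, with that run in capitals:
Rpl31: cggctacgcgaCTTTCCCTCCCacaaaccc
Rpl37a: gcattgcgtCCCTTCCTCTTCggacttggg
Rps12: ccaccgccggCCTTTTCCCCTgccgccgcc
Rps15: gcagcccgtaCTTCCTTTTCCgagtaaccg
Eef2: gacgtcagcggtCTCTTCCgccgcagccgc
Eef1b2: ttgcgtccgagcgCTTTCgttcaactccgg
Eif5b: ggagacgctctagccgaagcgccgCTCTCg
Eif4e2: ggaagtagccgggCCCTTagcgatgggacc
Eif4ebp2: tcgcagcgggacgaCCgggcgagagcaggc

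The windows lie at chr1:39367871-39367900 (plus strand) for Rpl31, chr1:72711275-72711304 (plus) for Rpl37a, chr10:23787182-23787211 (minus) for Rps12, chr10:80292446-80292475 (plus) for Rps15, chr10:81176634-81176663 (plus) for Eef2, chr1:63176850-63176879 (plus) for Eef1b2, chr1:37998030-37998059 (plus) for Eif5b, chr1:87213918-87213947 (plus) for Eif4e2 and chr10:61452651-61452680 (minus) for Eif4ebp2. The run was 11 bases long in Rpl31, Rps12 and Rps15 and 12 in Rpl37a. It was 7 bases in Eef2, 5 in Eef1b2 and Eif5b, at most 5 at the 3 annotated starts of Eif4e2 and 2 in Eif4ebp2. A run of at least 10 was thus present in 4 of 9 genes, all 4 of them ribosomal, and it was present in 40.9% of the 66 cytosolic ribosomal protein genes with a RefSeq start and in 6.78% of all 27025 genes with one. The runs do not sit at the annotated first base: it was a C followed by at least 4 pyrimidines in 0 of the 9 genes, in 22.7% of the ribosomal protein genes and in 3.01% of all genes. The printed lines of Rps12 and Eif4ebp2 open before the annotated start. In Rps12 the run began at base 9 after the start and in Rpl31 at base 32. These are matches of letters in a window, and which base begins the transcript in these cells was not measured.

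Ribosomal protein genes have many processed copies in the mouse genome, which bears on what their counts mean. For each gene, the principal transcript in GENCODE M21 was divided into all windows of 50 bases, the read length of the libraries, and each window was looked up on both strands in the transcripts of other genes. A gene lying elsewhere in the genome held 83.6% of the windows of Rps12, 53.3% of those of Rpl7, 39.0% of those of Rps15, 38.5% of those of Rpl37a and 32.9% of those of Rpl31. The share was 7.86% for Eef2, 5.98% for Eef1b2 and 0% for Eif5b, Eif4e2 and Eif4ebp2. Rps12 shared windows with 25 such genes and Rpl31 also with 25, while Rps15 shared them with 4. Apart from copies, 37.1% of the Rpl31 windows lie in the overlapping gene Tbc1d8 and 18.2% of the Eif5b windows in the overlapping gene Rev1. No source used here says how reads with several matches, or reads within overlapping genes, were counted. The levels of the 5 ribosomal protein genes, of Eef1b2, of Eef2 and of Eif5b are to that extent uncertain.

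**Figure D2:**
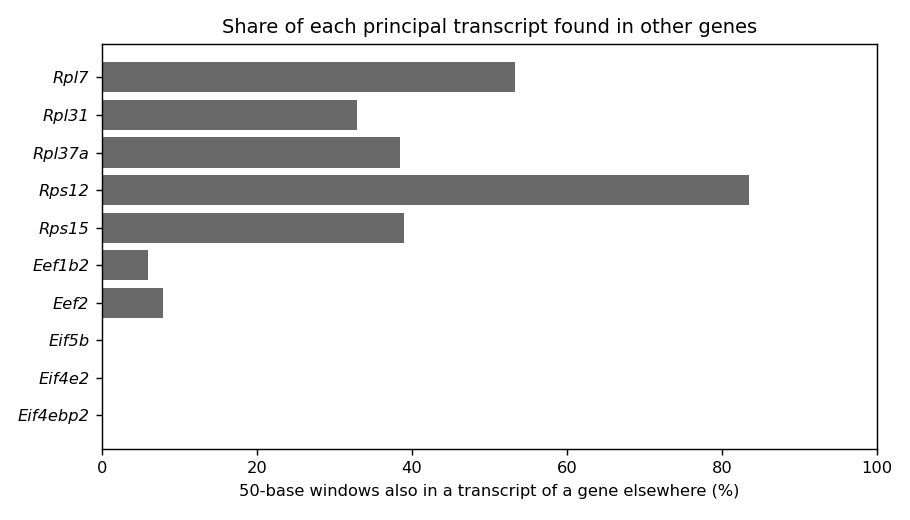
Share of the 50-base windows of each gene's principal transcript that also occur in an annotated transcript of a gene lying elsewhere (horizontal axis, percent). The bars of the ribosomal protein genes run from 32.9% to 83.6%, those of Eef1b2 and Eef2 are under 8%, and Eif5b, Eif4e2 and Eif4ebp2 have none.

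One of these copies has a row of its own in the table. Rpl31-ps9, a processed pseudogene on chromosome 1 from 129801355 to 129801848, has a GENCODE transcript of 378 bases that matches bases 94 to 471 of the Rpl31 transcript at 376 of 378 positions without a gap. The differences are C330T and C456T, with the Rpl31 base first, the position counted from 1 at the 5′ end of the Rpl31 transcript, and the base of the pseudogene last. The stretch around the first difference is shown with the differing base in capitals, since reads that miss both positions cannot be told apart:
Rpl31: caagggaataaggaaCgttccatatcgcat
Rpl31-ps9: caagggaataaggaaTgttccatatcgcat

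Rpl31-ps9 was read at 305, 244 and 275 CPM in WT and at 276, 245 and 247 CPM in KO. Its count was 49.8%, 48.4% and 47.6% of the Rpl31 count in the WT replicates and 49.0%, 48.2% and 47.6% in the KO replicates. The ratio therefore varied far less than either row, with a mean of 48.5% ± 0.861 (SD over 6 replicates), and the chi-square of the counts over replicates was 1.52 on 5 degrees of freedom, less than the sampling noise of reads alone would give on average. Rpl31-ps9 had a log2 fold change of -0.10 ± 0.13, with an edgeR adjusted p of 0.994. Whether reads of Rpl31 make up the row of the pseudogene was not tested.

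The translation factors were also expressed in every replicate, and Eef2 was the most abundant gene of the set by CPM. Eef2 encodes the GTPase that moves the ribosome by 1 codon after each peptide bond and is the target of the kinase Eef2k. It was read at 4164, 3709.9 and 3714 CPM in WT and at 4533, 4281 and 4899 CPM in KO. All KO replicates thus lay above all WT replicates, with a WT mean of 3863 ± 261 CPM (SD, n = 3) and a KO mean of 4571 ± 311 CPM (SD, n = 3). The log2 fold change was 0.24 ± 0.11 (SE), with a 95% interval from -0.00089 to 0.49 and an edgeR adjusted p of 0.994, so the difference did not pass the test. Replicates without overlap were found for 126 of the 1484 genes tested (8.49%), for 66 (4.45%) with KO higher and for 60 (4.04%) with KO lower, so 1 of these 10 genes is close to that background. The estimate stayed between 0.19 and 0.30 without each replicate in turn, and adjusted p ranged from 0.297 with duplicateCorrelation on 12 libraries to 0.9998 over the alternatives run. The oligodendrocyte genes Adamts4 and Nfasc also lay higher in every KO replicate, without passing the test (edgeR adjusted p = 0.504 and 0.927). Their part in the Eef2 values was not tested.

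Eef1b2, a subunit of the complex that reloads the elongation factor eEF1A with GTP, was read at 788, 551 and 588 CPM in WT and at 703, 594 and 699 CPM in KO. Its groups overlapped, with WT replicate 1 highest and WT replicate 2 lowest, and its log2 fold change of 0.051 ± 0.15 did not pass (edgeR adjusted p = 0.994). Without WT replicate 2 the log2 fold change was -0.037.

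Of the initiation genes, Eif5b encodes the GTPase that joins the subunits at the start codon. It was read at 554, 668 and 692 CPM in WT and at 696, 666 and 658 CPM in KO. The KO replicates lay close together, with a coefficient of variation of 3.02%, and WT replicate 1 stood below the other 5. Eif4e2 encodes a cap-binding protein, also called 4EHP, that acts mainly as a repressor of translation together with Gigyf2. It was read at 774, 646 and 631 CPM in WT and at 593, 684 and 654 CPM in KO, with WT replicate 1 highest and KO replicate 1 lowest. Eif4ebp2 encodes an inhibitor that binds the cap-binding protein eIF4E until mTOR phosphorylates it. It was the least abundant gene of the set, at 35.7, 41.7 and 55.6 CPM in WT against 55.5, 52.1 and 33.5 CPM in KO, from 162 to 329 reads a replicate.

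The log2 fold changes of these 3 genes were 0.078 ± 0.12 for Eif5b, -0.088 ± 0.12 for Eif4e2 and 0.084 ± 0.31 for Eif4ebp2, and none passed (edgeR adjusted p = 0.994 for each). Without WT replicate 1 the values were -0.016 for Eif5b, 0.0086 for Eif4e2 and -0.053 for Eif4ebp2, so the direction of all 3 rests on that replicate, and that of Eif4ebp2 also on KO replicate 1 (-0.054 without it). For Eif4ebp2 the 95% interval of the KO to WT ratio was wide, from 0.65 to 1.72. For Eif5b it ran from 0.88 to 1.27 and for Eif4e2 from 0.78 to 1.14.

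**Figure D3:**
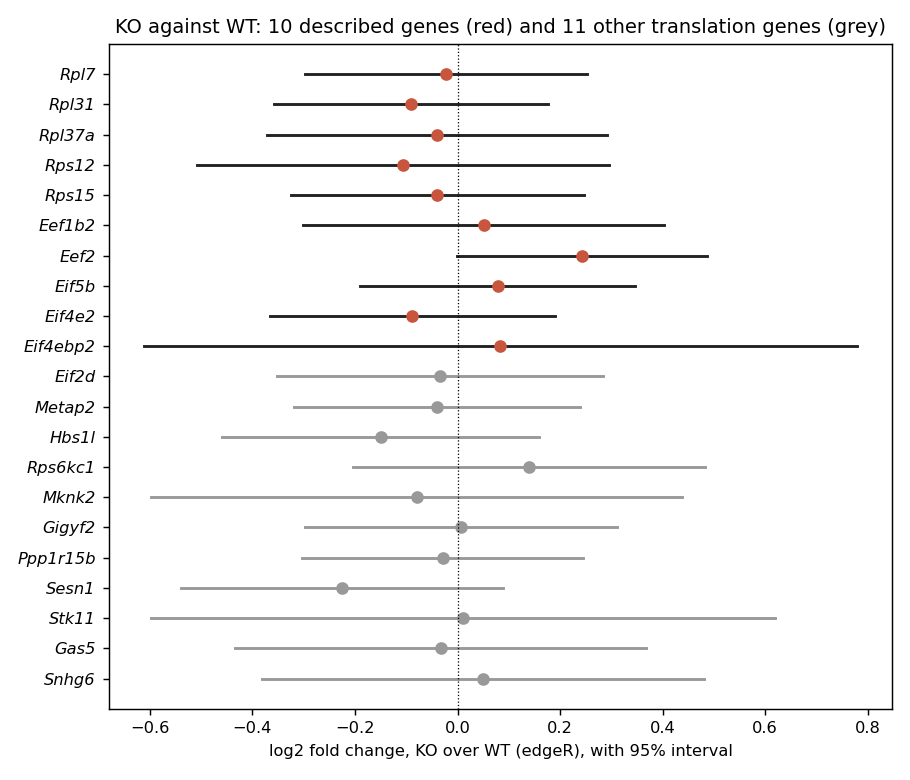
Log2 fold change, KO over WT, with its 95% interval from the edgeR fit (horizontal axis) for the 10 genes (red points) and for 11 other translation genes of the fixed lists (grey points). The interval of every gene holds 0, and that of Eef2 touches it with a lower end of -0.00089.

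Compared per length, the members covered a wide range of levels. On the scale of CPM per kilobase of the longest annotated transcript, averaged over 6 replicates, Rpl37a stood at 1605 ± 198 (SD), Rps15 at 1565 ± 149.8, Eef2 at 1365 ± 151, Rpl7 at 885 ± 79.9 and Rpl31 at 522 ± 41.8. Rpl37a and Rps15 differed by less than their spread on this scale, but per kilobase of merged exons Rpl37a was at 757 ± 93.5, below Rps15 at 1421 ± 136 and Eef2 at 1269 ± 139.9, so the order of these 3 depends on the length used. Eef1b2 followed at 337 ± 46.6, Eif4e2 at 191 ± 17.8, Eif5b at 84.1 ± 6.67, Rps12 at 72.5 ± 8.99 and Eif4ebp2 at 7.90 ± 1.73. The longest transcripts of Rps12, Rpl7 and Rpl37a retain introns. Per kilobase of the principal transcript, Rps12 stood at 223 ± 27.6 and Rpl7 at 1216 ± 109.7. Rpl37a stood at 1913 ± 236 and Rps15 at 1790.1 ± 171 on that scale. The ribosomal protein with the highest level thus had 22.2 times that of Rps12 by longest transcript and 8.59 times by principal transcript. Rps12 is also the gene with the largest share of windows found elsewhere, 83.6%. By longest transcript, Rpl7, with a share of 53.3%, stood above Rpl31, with 32.9%. The part of shared windows in these levels was not tested.

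Variation between replicates was close to that of other genes of like abundance. The coefficient of variation of CPM over the 6 replicates was 8.00% for Rpl31, 9.02% for Rpl7, 9.57% for Rps15, 12.4% for Rpl37a and 12.4% for Rps12. Among genes within 2-fold of its mean CPM, 17.7% varied less than Rpl31 and 66.4% less than Rpl37a. For the factors it was 7.93% for Eif5b, 9.31% for Eif4e2, 11.03% for Eef2, 13.8% for Eef1b2 and 21.9% for Eif4ebp2, against a median of 26.9% among genes as low as Eif4ebp2. The value for Eef2 includes the difference between genotypes, and its coefficient was 6.76% within WT and 6.80% within KO. Read counting alone would give 0.695% for Eef2, 3.95% for Rps12 and 6.66% for Eif4ebp2, so most of the spread lay between replicates. The libraries of 1 replicate differed by a median of 0.024 on the log2 scale for Rpl7, where the replicates spanned 0.33.

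**Figure D4:**
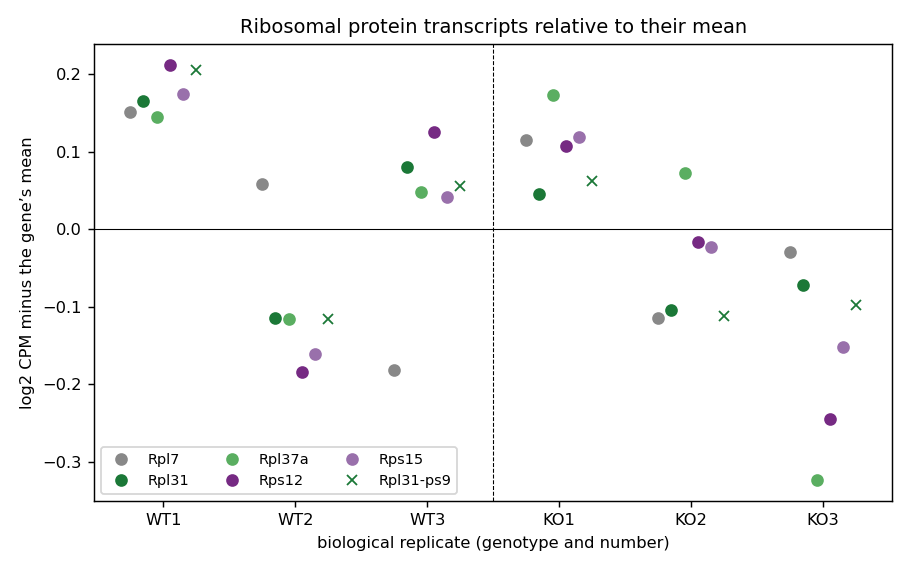
Log2 CPM of the ribosomal protein genes and of Rpl31-ps9 minus each gene's mean (vertical axis) in the 6 biological replicates (horizontal axis). Rpl31, Rpl37a, Rps12 and Rps15 lie above their means in WT replicates 1 and 3 and KO replicate 1 and below them in WT replicate 2 and KO replicate 3, while Rpl7 is lowest in WT replicate 3.

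Of the ribosomal protein genes, 4 varied together over the replicates, a grouping made after their values were seen. Pearson correlations of log2(CPM + 1) over the 6 replicates were computed for all 45 pairs of the 10 genes, with exact two-sided permutation p over the 720 pairings. Rps12 and Rps15 were the closest pair, with r = 0.97 and rho = 0.89 (permutation p = 0.00556 for r and 0.0333 for rho, adjusted p = 0.156 and 0.438). Without the replicates farthest from the median of Rps12, WT replicate 2 and KO replicate 3, r was 0.90, and on deviations from the genotype means it was 0.98. The other pairs among Rpl31, Rpl37a, Rps12 and Rps15 had r between 0.60 and 0.90, and between 0.43 and 0.78 without the 2 farthest replicates. The largest drop was that of Rpl37a with Rps12, from 0.90 to 0.43, so that relation rests on WT replicate 2 and KO replicate 3. Rpl7 had r from 0.17 to 0.33 with the 4 genes. The median over the 10 pairs of ribosomal protein genes was 0.74 and fell to 0.56 without the 2 farthest replicates of each pair. The median over all pairs of tested genes of at least 50 CPM was 0.0085, and the middle 90% of those pairs ran from -0.76 to 0.77. After adjustment over the 45 pairs 0 had p under 0.05, and 6 did before adjustment. With 6 replicates the smallest p for r is 0.00139, or 0.0625 when a single pair reaches it among 45. For rho the smallest p is larger, since the reversed order of ranks also counts. These correlations therefore describe the replicates at hand. The pairs share their libraries and their scaling. The replicates where the 4 genes were low, WT replicate 2 and KO replicate 3, also had the lowest sums of the microglial markers (2 of the 15 listed were in the table), 41.5 and 47.0 CPM. The highest microglial sum, 242 CPM, was in KO replicate 2. There Rpl31 (508 CPM), Rps12 (128 CPM) and Rps15 (877 CPM) were below their means of 547, 130 and 895 CPM. Rpl37a (1115 CPM) was above its mean of 1067 CPM. WT replicate 3, where the 4 genes were above their means, had a sum of 58.5 CPM. The other marker lists had their lowest sums in other pairs of replicates. Neuronal genes were lowest in KO replicates 3 and 2 (79.8 and 130 CPM). Immediate early genes were lowest in WT replicate 2 and KO replicate 1 (285 and 393 CPM). The part of microglia or of other cells in the covariation was not tested.

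Among the factors the clearest relation ran the other way. Eif5b and Eif4e2 had r = -0.94 and rho = -0.94 over the 6 replicates (permutation p = 0.00694 for r and 0.0167 for rho, adjusted p = 0.156 and 0.438), and r = -0.93 on deviations from the genotype means. Without the replicates farthest from the median of Eif5b, WT replicate 1 and KO replicate 1, r was -0.62, so the size of the relation rests in part on those. Eef2 and Eef1b2 had r = 0.62 and rho = 0.60 (permutation p = 0.179 and 0.242, adjusted p = 0.688 and 0.837), and without WT replicates 1 and 2, the farthest from the median of Eef1b2, r was 0.84. With the 5 ribosomal protein genes, Eef2 had r between -0.27 and 0.22. On deviations from the genotype means these values ran from -0.27 with Rpl37a to 0.49 with Rpl31 and 0.52 with Rpl7.

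**Figure D5:**
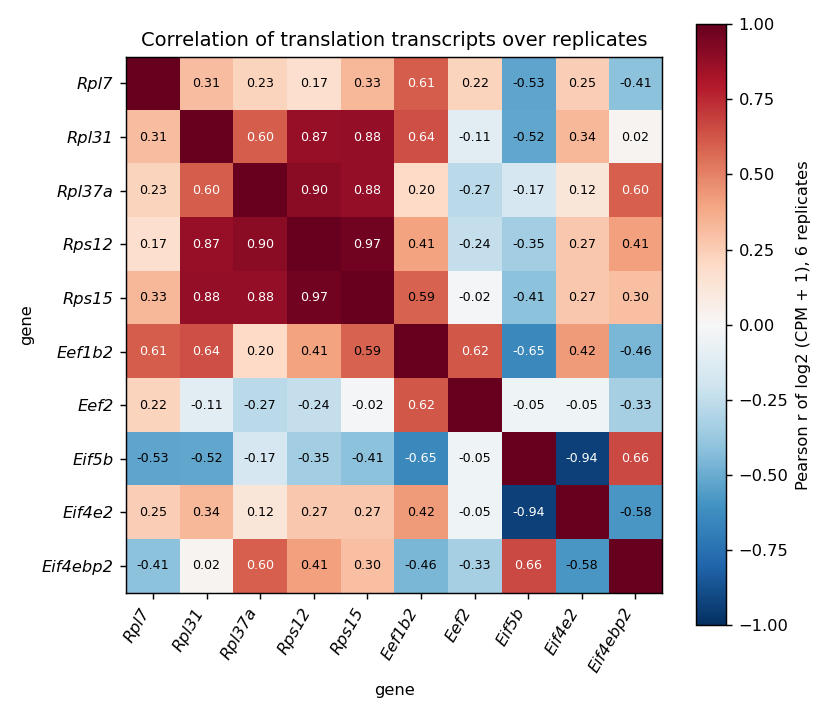
Pearson r of log2(CPM + 1) over the 6 replicates for each pair of the 10 genes (colour scale from -1 to 1, values printed in the cells). The block of Rpl31, Rpl37a, Rps12 and Rps15 holds values from 0.60 to 0.97, and Eif5b with Eif4e2 holds the lowest value, -0.94.

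Other genes of translation in the table behaved much like the members in the comparison of genotypes. The lists of initiation factors, of elongation, termination and recycling factors and of translational control had 52, 26 and 50 genes, of which 4, 3 and 7 were tested, members included, with 0 called higher and 0 called lower by edgeR and 0 under 0.05 before adjustment. Metap2, which removes the first methionine from nascent proteins, averaged 2138 ± 313 CPM in WT against 2078 ± 51.0 CPM in KO. Eif2d, a factor of ribosome recycling and of initiation without eIF2, averaged 453 ± 63.2 CPM in WT against 442 ± 41.6 CPM in KO. Hbs1l, a GTPase that rescues stalled ribosomes, averaged 1063 ± 166 CPM in WT against 958 ± 87.4 CPM in KO.

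The genes of translational control lie upstream of the machinery. Gigyf2, the partner of Eif4e2, averaged 368 ± 52.0 CPM in WT against 369.9 ± 12.9 CPM in KO. Ppp1r15b, which directs a phosphatase to the initiation factor eIF2, averaged 1396 ± 127 CPM in WT against 1368 ± 147 CPM in KO. Sesn1, an inhibitor of mTOR complex 1, averaged 468 ± 66.6 CPM in WT against 400.4 ± 31.2 CPM in KO, with a log2 fold change of -0.22 ± 0.14. Stk11, a kinase that activates AMPK, had a log2 fold change of 0.010 ± 0.27. Mknk2, a kinase of eIF4E, averaged 94.7 ± 19.5 CPM in WT against 89.7 ± 15.1 CPM in KO, and Rps6kc1, named for its likeness to S6 kinases, 408 ± 58.1 CPM in WT against 449 ± 59.6 CPM in KO. Of these 9 genes, the furthest from 0 was Sesn1, and all had an edgeR adjusted p of 0.994. Gas5 and Snhg6, non-coding hosts of small nucleolar RNAs, were listed as other transcripts of the terminal oligopyrimidine class. Their start sequences are not shown here. They averaged 1435 ± 387 and 96.8 ± 12.1 CPM in WT against 1402 ± 87.2 and 100.2 ± 11.8 CPM in KO. Neither passed the test (edgeR adjusted p = 0.994).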

How the data were processed

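RNA of 6 biological replicates was read as 12 libraries. The authors deposited raw counts, 1 column for each library and 1 line for each gene. The submitters' processing notes name featureCounts, HISAT2, fastp, FastQC, DESeq2 1.38.1, SAMtools 1.4.1, CASAVA 1.8.2 and the build mm10. Parameters, annotation and use of strand: not given in the sources used here. The table held 2398 complete lines, and a final incomplete line was dropped. Of the identifiers, 2226 matched RefSeq on GRCm38 and 172, with 0.552% of the counts, did not.

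The 2 libraries of a replicate were summed. The genotypes were compared in edgeR 4.0.16 (R 4.3.3) by glmQLFTest on a robust glmQLFit, after filterByExpr and with TMM factors from 0.951 to 1.05, adjusting p by Benjamini-Hochberg over 1484 genes. An SE is the size of the log2 fold change over the square root of its F. Nothing says that replicates of a genotype came from separate litters, and p-values measure the spread between these samples. The labels name no batch. On simulated counts for 1484 genes with 200 changed, edgeR recovered 61.0% of 2-fold changes, with 8.80 false calls on average over 5 runs. Lengths and sequences came from GENCODE M21 and RefSeq. Scripts used Python 3.11.15 and scipy 1.17.1.

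The genes, lists and tests were chosen with earlier results of these data known. The rule names the 10 genes, the list genes of at least 20 CPM, ribosomal protein pseudogene rows of at least 20 CPM, and the 3 genes of at least 50 CPM with the highest mean r to the ribosomal protein genes. Alternatives were other scalings, filters and tools, a replicate block, single libraries, leaving out each replicate, other lengths and other tract rules. DESeq2 1.42.0 and limma 3.58.1 served as other tools.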

Additional observations from a re-analysis of the deposited data

How the results depend on the processing

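No alternative brought any of the 10 genes past the threshold. The count of 0 genes called in each direction over the whole table moved to 6 higher and 1 lower with DESeq2 and, fitting the 12 libraries with duplicateCorrelation, to 7 higher; the cause was not tested. Signs changed for Eif4ebp2 with the first library of each replicate (-0.012) and for Rpl7 with the second (0.0096). Leaving out each replicate gave log2 fold changes from -0.10 to 0.049 for Rpl7, -0.14 to 0.093 for Rpl37a, -0.12 to 0.039 for Rps15, -0.037 to 0.22 for Eef1b2, -0.016 to 0.15 for Eif5b, -0.13 to 0.0086 for Eif4e2 and -0.054 to 0.29 for Eif4ebp2, while Rpl31, Rps12 and Eef2 kept their sign. It moved the coefficient of variation to between 7.66% and 13.1% for Rpl37a, 2.58% and 9.41% for Eif5b and 5.15% and 10.3% for Eif4e2. The median r of the ribosomal protein pairs lay between 0.64 and 0.82 without each replicate.

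Same-numbered replicates of the genotypes had deviations that correlated at -0.0032, -0.30 and 0.14. Differently numbered ones ran from -0.34 (WT replicate 3 with KO replicate 1) to 0.35 (WT replicate 2 with KO replicate 1). The labels do not say what a shared number means, and so few replicates cannot settle whether the samples were paired. With the replicate block 0 genes were called, and Eef2 had a log2 fold change of 0.24.

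With the merged exons as length, CPM per kilobase was 526 for Rpl7, 329 for Rpl31, 757 for Rpl37a, 258 for Eef1b2, 67.2 for Eif5b and 88.5 for Eif4e2, which put Rps15 (1421) and Eef2 (1269) above Rpl37a. With the principal transcript, a choice made after seeing the data, it was 1216 for Rpl7, 1913 for Rpl37a, 223 for Rps12, 1790.0 for Rps15 and 367 for Eif4e2. Both changes follow from the lengths themselves. With the tract allowed to start within 5 bases of the annotated start, 1 of the 9 genes had it, against 21.2% of all genes. The search in the first 50 bases was also chosen after seeing the data.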

Other observations

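Besides Rpl31-ps9, the table had 3 further rows named as copies of ribosomal protein genes, and Rps15a-ps1 was among them with 0 to 4 reads a replicate. Rpl6l, a pseudogene on chromosome 10 from 111125836 to 111126780, was read at 634, 495 and 553 CPM in WT and at 545, 457 and 445 CPM in KO, with a log2 fold change of -0.22 ± 0.14 (edgeR adjusted p = 0.994). Of its windows of 50 bases, 76.4% occur in transcripts of other genes, and 61.8% in Rpl6 itself, which is not analysed here. Rpl32l, on chromosome 10 from 20208439 to 20209030, is a processed pseudogene in GENCODE M21 but protein-coding in RefSeq. It was read at 99.0, 84.9 and 127 CPM in WT and at 88.8, 92.9 and 91.0 CPM in KO. Of its windows, 35.4% were found in other genes.

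Ranked by mean Pearson r to the 5 ribosomal protein genes over the 6 replicates, among 950 other genes of at least 50 CPM, the first 3 were Rpl31-ps9 (0.77), Hes6 (0.77) and Rpl6l (0.75). The mean for Rpl31-ps9 includes its r of 0.99 with Rpl31, whose sequence it nearly shares. The gene at rank 10 still had a mean r of 0.74, so the order rests on small differences. Hes6, which encodes a transcription factor of the Hairy and Enhancer of split family, was read at 279, 224 and 249 CPM in WT and at 255, 248 and 229 CPM in KO. Rpl32l had a mean r of 0.22. These ranks describe 6 replicates, and genes were not independent of each other in the scaling.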
